A study of Mus musculus with 20 samples.

Results

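Genes of the choroid plexus epithelium were followed in the preoptic area (POA) of male mice: Ttr, Folr1, Aqp1, Slc4a5, Kcnj13, Kcne2, Clic6, Otx2, Sostdc1 and Kl. They were chosen by name as genes that mark this epithelium, and all 10 were found among the 25239 genes of the count table. Each had reads in at least 19 of the 20 mice.

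The POA samples came from 20 male mice aged to PND320, and the 4 groups of 5 crossed genotype (control or dnFGFR) with housing (same-sex, SS, or opposite-sex, OS). The dnFGFR mice were homozygous for a transgene that encodes a truncated FGFR1 without its kinase domain, under a rat GnRH promoter that directs it to GnRH neurons, and the controls were bred from heterozygous siblings to match their background. SS mice lived with a male and OS mice with a female from PND20 for 300 days, and OS mice bred and raised pups, so that the partner's sex cannot be told apart from mating and the presence of pups. The samples were cut by hand from a brain slice, and the labels give the tissue as Brain (mPOA) and the cell type as whole-brain.

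The choroid plexus is a fold of epithelium that hangs into the brain ventricles and secretes cerebrospinal fluid. Its cells move ions, water and vitamins from blood to fluid, and they make transthyretin at a level that neurons and glia do not approach. It is not part of the POA, which borders the third ventricle. Several of the genes are also used outside this epithelium, so a low level of them need not come from it.

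In all, 6 of the 10 genes had promoters in the RefSeq set for GRCm38.p6, with 10 windows in all. The windows were searched because OTX2 is a transcription factor of this epithelium whose binding word is known, and the 250 bases before each start site were read on both strands. The OTX word TAATCC, which reads as GGATTA on the other strand, was present in 1 of the 6 genes, Otx2 itself, against 6.25% of 32851 windows and 7.21% of 27025 genes over the genome. Its core TAATC, whose other strand reads as GATTA, lies inside the longer word and was added after the first count. It was present in 3 of the 6, against 19.8% of windows and 22.3% of genes. Of 27 further choroid plexus genes with promoters in the set, from a list described below, 6 held this core and 4 the longer word. The windows of Kcnj13 and Kcne2 and the site in Otx2 are given here because they hold the matches of those 3 genes, with GATTA in capitals. The Kcnj13 window (chr1:87394730-87394979, minus strand) lies within the span of Gigyf2 and touches no exon, and its match begins 226 bases before the start site. The Kcne2 window (chr16:92292139-92292388, plus strand) touches no exon either, and its match begins 32 bases before the start site. The Otx2 match begins 210 bases before the third of 4 start sites. The window of that start site touches an exon of Otx2, so only 25 bases around the match are shown (chr14:48665305-48665329, minus strand). Such a match is a description of the letters and not a binding site. Promoters of Ttr, Folr1, Clic6 and Sostdc1 were not used here.
Kcnj13: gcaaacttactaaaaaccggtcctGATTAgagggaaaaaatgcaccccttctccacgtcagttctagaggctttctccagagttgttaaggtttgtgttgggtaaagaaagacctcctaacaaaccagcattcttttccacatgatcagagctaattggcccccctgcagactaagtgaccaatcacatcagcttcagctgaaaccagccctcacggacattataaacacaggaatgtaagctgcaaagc
Kcne2: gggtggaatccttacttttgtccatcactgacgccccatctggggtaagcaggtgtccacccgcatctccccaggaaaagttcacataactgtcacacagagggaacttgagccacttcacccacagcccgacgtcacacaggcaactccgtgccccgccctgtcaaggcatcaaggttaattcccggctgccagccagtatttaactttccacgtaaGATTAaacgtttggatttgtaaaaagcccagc
Otx2: gtgcccctcgGATTAtctcgttagt

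Libraries held 32353578 to 39871353 counted reads. dnFGFR OS replicate 5 stood apart from the others, with 18416 genes with reads against 19101 to 19659 and a first principal component score of 69.3 against -29.8 to 15.97. Median fold changes and several of the correlations that rest on it are also given without it. All 6 genes listed for the POA had reads in every mouse, Gnrh1 between 0.968 and 2.53 CPM. No pair of mice within a group agreed within sampling noise. Each mouse is 1 sample, and counting intervals below cover counting error only.

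Ttr, which encodes the carrier of thyroid hormone and retinol in cerebrospinal fluid, differed widely between mice of the same group, in each of the 4 groups. Values are in CPM, each gene's reads scaled by all counted reads of the mouse. In control SS mice Ttr was at 81.9, 337.8, 1.84, 975.2 and 1.68 CPM in replicates 1 to 5. In control OS mice it was at 1286, 1801, 606.1, 1789 and 13.5 CPM. Each of these groups thus held at least 1 mouse at about 13.5 CPM or lower and at least 1 near or above 1000 CPM. In dnFGFR SS mice Ttr was at 1.40, 11.01, 1490, 0.204 and 679.2 CPM, and in dnFGFR OS mice at 174.8, 0.786, 2033, 17.7 and 330.6 CPM. The highest mouse, dnFGFR OS replicate 3, exceeded the lowest, dnFGFR SS replicate 4, by 9972-fold. That lowest value rested on 7 reads, with an exact Poisson 95% interval of 0.0820 to 0.420 CPM. By median the groups ranked control OS (1286 CPM), dnFGFR OS (174.8 CPM), control SS (81.9 CPM) and dnFGFR SS (11.01 CPM), and the ranges of all 4 groups overlapped. In bulk RNA, fewer cells of a type and less RNA per cell cannot be told apart.

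**Figure D1:**
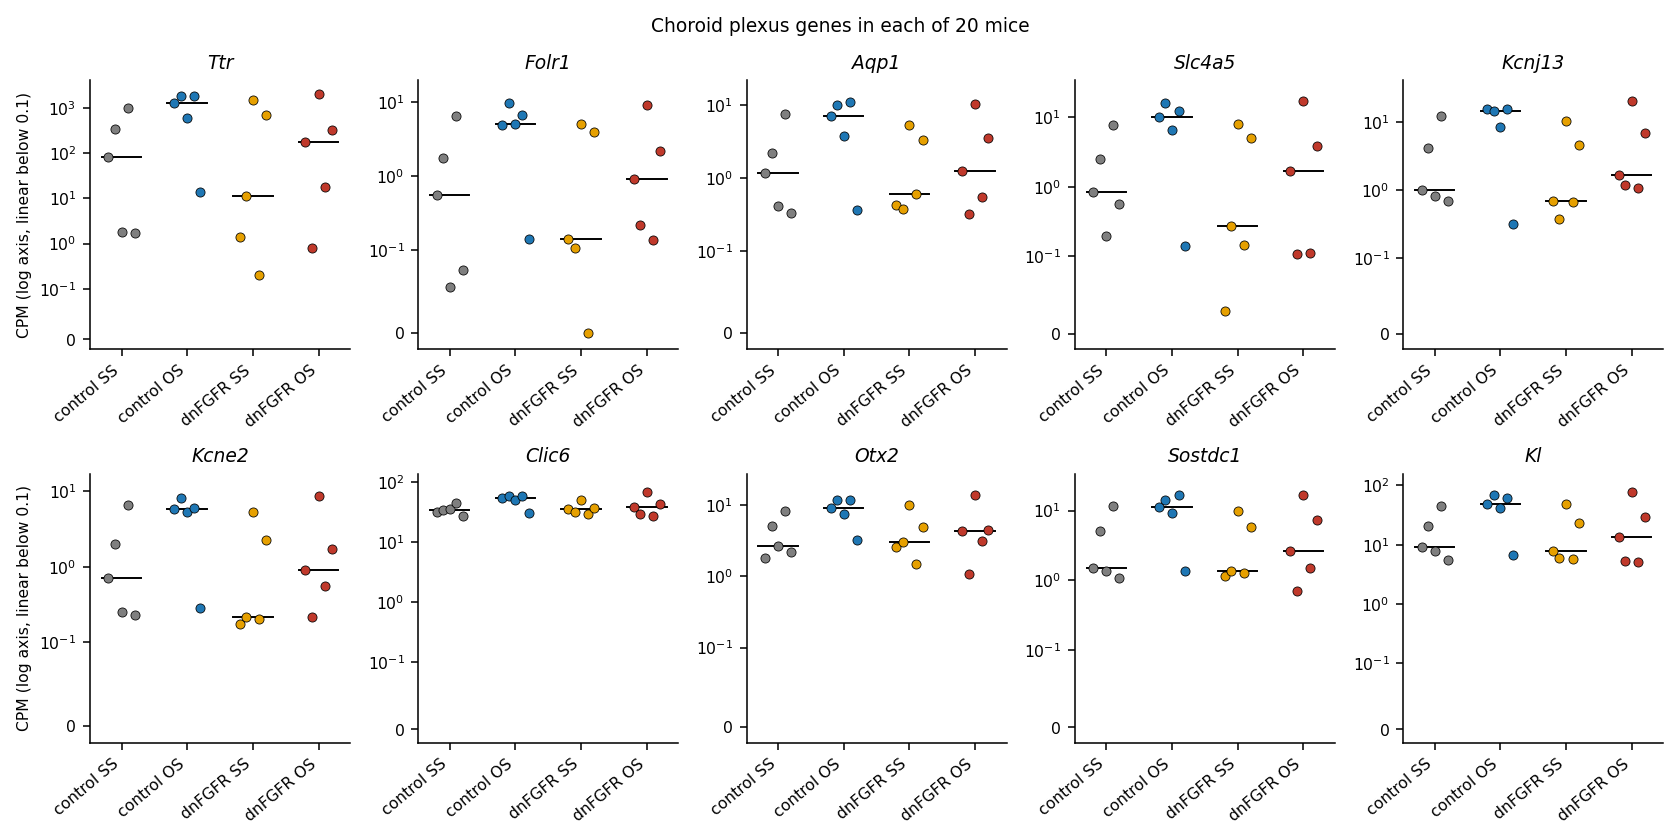
CPM of the 10 choroid plexus genes in each of 20 mice, by group (5 mice each). The axis is logarithmic above 0.1 CPM and linear below it, each point is a mouse, and bars are group medians. Ttr runs from 0.204 to 2033 CPM while Clic6 stays between 27.2 and 69.7 CPM, and for each gene the ranges of the 4 groups overlap.

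Folr1, the folate receptor that carries folate into cerebrospinal fluid, ran from 0 to 9.85 CPM. It had no read in dnFGFR SS replicate 4, the mouse with the lowest Ttr, where a count of 0 is taken to allow up to 3 reads, or 0.0874 CPM. Against that floor control OS replicate 2, the highest, was at least 112.8-fold higher. Group medians of Folr1 were 0.557 CPM in control SS, 4.99 CPM in control OS, 0.143 CPM in dnFGFR SS and 0.917 CPM in dnFGFR OS mice.

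The water channel and ion transport genes followed the same mice. Aqp1, the water channel of the apical membrane, ran from 0.325 to 10.8 CPM (33.1-fold), with group medians of 1.17, 7.01, 0.612 and 1.24 CPM in the order SS then OS of control mice and SS then OS of dnFGFR mice. Slc4a5, a sodium bicarbonate cotransporter, ran from 0.0287 CPM, a single read in dnFGFR SS replicate 1, to 16.9 CPM in dnFGFR OS replicate 3. Its group medians were 0.850, 10.1, 0.271 and 1.66 CPM in that order. Aqp1 and Slc4a5 thus both had their highest median in control OS mice and their lowest in dnFGFR SS mice, with overlapping ranges.

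Kcnj13 encodes an inwardly rectifying potassium channel and Kcne2 a potassium channel subunit. Kcnj13 ran over 65.3-fold, from 0.314 CPM in control OS replicate 5 to 20.5 CPM in dnFGFR OS replicate 3. Kcne2 was at 0.704, 1.99, 0.250, 6.52 and 0.229 CPM in control SS mice and at 5.80, 8.16, 5.30, 6.06 and 0.285 CPM in control OS mice. In the other genotype Kcne2 was at 0.172, 0.216, 5.40, 0.204 and 2.28 CPM in dnFGFR SS mice and at 0.917, 0.217, 8.62, 0.559 and 1.74 CPM in dnFGFR OS mice. As with Ttr, control OS replicate 5 was low among 4 high mice, and dnFGFR OS replicate 3 was high among 4 lower ones.

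Clic6, a chloride intracellular channel gene, had by far the narrowest range, 2.56-fold. It was at 31.7, 35.1, 35.4, 45.2 and 27.2 CPM in control SS mice and at 53.8, 59.0, 49.9, 59.3 and 30.4 CPM in control OS mice. It was at 35.8, 31.5, 50.1, 30.0 and 37.7 CPM in dnFGFR SS mice and at 39.1, 29.5, 69.7, 27.7 and 43.5 CPM in dnFGFR OS mice. No mouse fell below 27.2 CPM, including those with nearly no Ttr, and 4 of the 5 control OS mice were above all control SS mice while replicate 5 was below 4 of them.

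Otx2, the homeodomain transcription factor that this epithelium needs to form and persist, was at 1.79, 5.18, 2.67, 8.28 and 2.22 CPM in control SS mice and at 9.17, 11.7, 7.58, 12.1 and 3.25 CPM in control OS mice. It was at 2.64, 3.08, 10.2, 1.51 and 4.92 CPM in dnFGFR SS mice and at 4.35, 1.08, 13.9, 3.10 and 4.47 CPM in dnFGFR OS mice, a range of 12.8-fold over all mice. The highest mouse was dnFGFR OS replicate 3 and the lowest dnFGFR OS replicate 2, so that the ends of the range lay within 1 group, and all groups overlapped.

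The secreted and membrane factors were high in the same mice. Sostdc1, a secreted antagonist of BMP and Wnt signalling, ran from 0.705 to 16.9 CPM (24.0-fold). Kl, the alpha-klotho co-receptor for a circulating FGF, was at 9.32, 21.1, 7.88, 44.2 and 5.60 CPM in control SS mice and at 49.1, 68.2, 40.9, 60.2 and 6.84 CPM in control OS mice. Kl was at 7.76, 6.09, 49.3, 5.65 and 23.2 CPM in dnFGFR SS mice and at 13.6, 5.23, 78.9, 5.12 and 29.4 CPM in dnFGFR OS mice. Its range was 15.4-fold, and it did not fall below 5.12 CPM in any mouse.

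Per exon length, Ttr was the most abundant of the 10 genes, at up to 1714 RPKM (CPM divided by exon length in kilobases) and a median of 213.1 RPKM over mice. The highest RPKM of the others ran from 17.8 for Clic6, 16.1 for Kcnj13, 9.50 for Sostdc1 and 8.46 for Kl down to 2.92 for Slc4a5. By median RPKM, Clic6 came next to Ttr at 9.39, and the remaining 8 genes lay between 0.355 and 2.30.

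The same few mice carried nearly all of these genes. dnFGFR OS replicate 3 had the highest value of 8 of the 10, with Folr1 highest in control OS replicate 2 and Aqp1 highest in control OS replicate 4. In 6 mice all 10 genes ranked among the highest 7 of 20: dnFGFR OS replicate 3, control OS replicates 1, 2 and 4, dnFGFR SS replicate 3 and control SS replicate 4. Control OS replicate 3 had 9 of the 10 there. At the other end were dnFGFR OS replicate 2, with a median rank of 19.0, and dnFGFR SS replicate 4 and control SS replicate 5, with 17.5 each. The summed CPM of the 10 genes ran from 39.6 to 1125 in control SS, 56.6 to 2012 in control OS, 40.3 to 1644 in dnFGFR SS and 39.4 to 2278 in dnFGFR OS mice, so that the ranges of the 4 groups overlapped widely.

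Across the 20 mice the other 9 genes rose and fell with Ttr. On the log2 CPM scale (prior count 2), Pearson's r with Ttr was 0.956 for Folr1, 0.945 for Kcne2, 0.931 for Slc4a5, 0.924 for Sostdc1, 0.919 for Aqp1, 0.912 for Kl, 0.899 for Otx2, 0.873 for Kcnj13 and 0.806 for Clic6. Spearman's rho lay between 0.866 and 0.971. The two-sided permutation p of r was 2e-05 for Kcnj13 and Clic6 and 1e-05, the smallest that 100000 permutations can give, for the other 7, and adjusted over the 9 relations they were 2e-05 and 1.29e-05. Within control mice r was between 0.847 and 0.98 and within dnFGFR mice between 0.772 and 0.94 (n = 10 each). Within dnFGFR mice without dnFGFR OS replicate 5 it was between 0.761 and 0.937 (n = 9). Over all mice but the 2 farthest from the median of Ttr, r was between 0.8 and 0.967. Over all 45 pairs of the 10 genes r had a median of 0.948 and a range of 0.806 to 0.986. The points share libraries, and the genes were chosen with earlier results of these mice known.

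**Figure D2:**
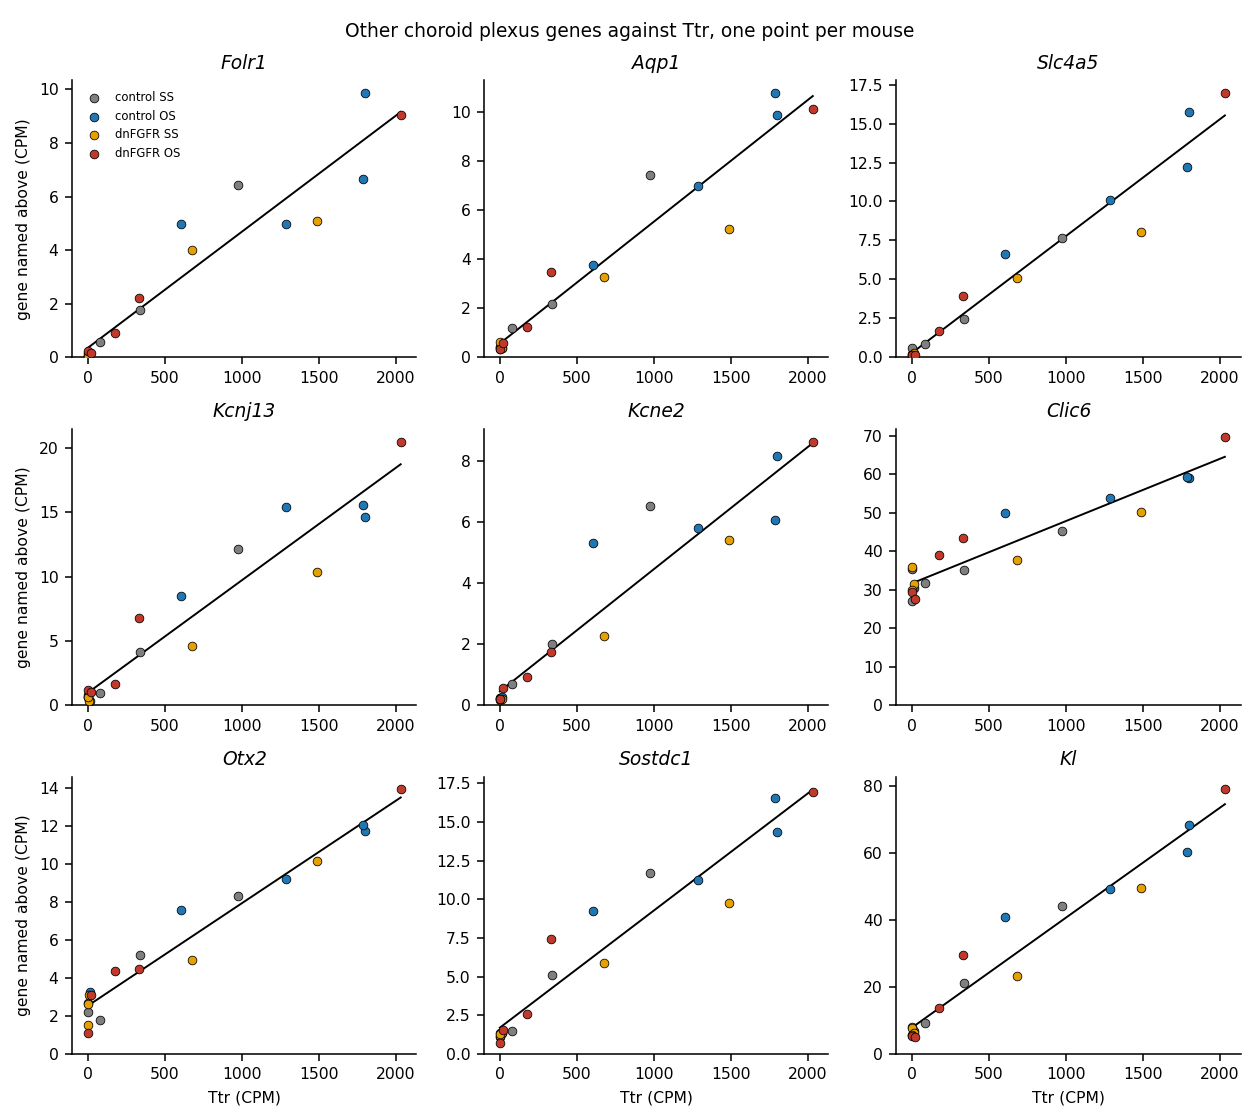
CPM of each of the other 9 genes (vertical axes) against CPM of Ttr (horizontal axes) in 20 mice, coloured by group, with the least-squares line over all mice. The lines of Clic6, Kl and Otx2 meet the vertical axis above 0, at 31.7, 7.82 and 2.52 CPM, and mice of all 4 groups lie along the same lines.

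A line of each gene's CPM on Ttr was added after the values were seen. It gives a level at a Ttr of 0 and a gain with Ttr. Clic6 had 31.7 ± 1.22 CPM (SE, n = 20 mice) at a Ttr of 0 and gained 16.1 CPM per 1000 CPM of Ttr. Kl had 7.82 ± 1.55 CPM and gained 32.8, and Otx2 had 2.52 ± 0.245 CPM and gained 5.39. The lines of these 3 genes therefore met a Ttr of 0 at a level many times its SE. The lines were fitted without weights. The lowest values in any mouse were below those levels, at 27.2 CPM for Clic6, 5.12 CPM for Kl and 1.08 CPM for Otx2. For Sostdc1 the level at a Ttr of 0 was 1.69 ± 0.455 CPM and for Aqp1 0.560 ± 0.276 CPM. For Folr1, Slc4a5, Kcnj13 and Kcne2 it was between 0.273 and 0.984 CPM and within 2 SE of 0.

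The spread between mice of a group set these genes apart from nearly all others. The biological coefficient of variation (BCV) of edgeR, the relative spread between mice of a group beyond counting error, was 1.60 for Ttr, the fifth highest of 17445 genes. It was 1.304 for Folr1, 1.26 for Slc4a5, 1.06 for Kcne2, 1.01 for Kcnj13 and 0.967 for Aqp1. It was 0.831 for Sostdc1, 0.772 for Kl, 0.582 for Otx2 and 0.230 for Clic6. The median of the 10 was 0.990 against 0.124 for all genes, and 52 of 17445 genes lay above that median. Clic6, ranked 3671, was the exception among the 10.

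**Figure D3:**
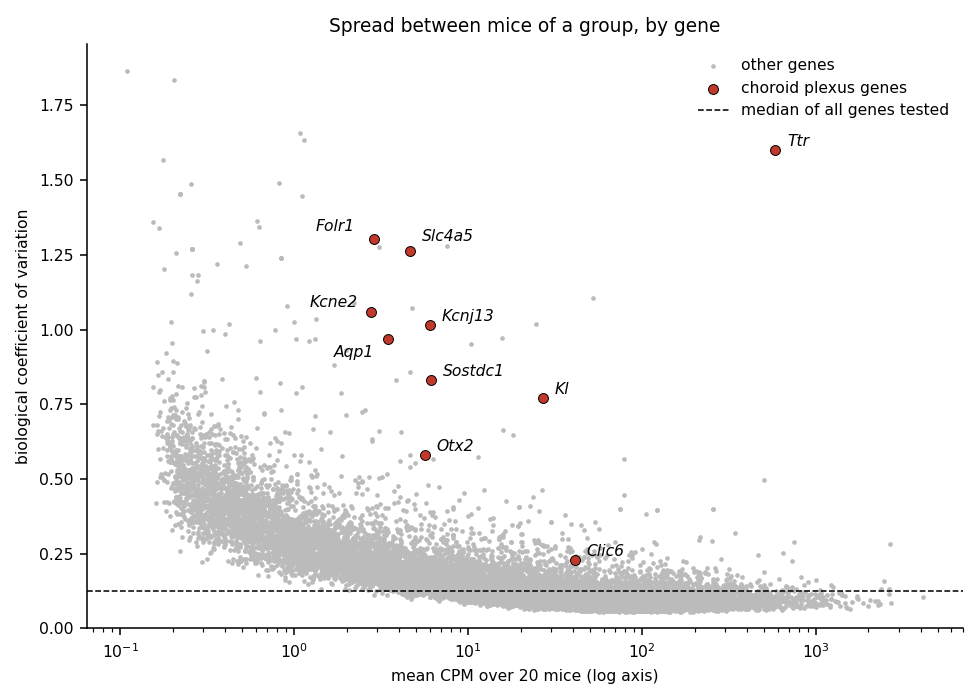
Biological coefficient of variation over the 4 groups (vertical axis) against mean CPM over 20 mice (horizontal axis, logarithmic) for 17445 genes. The 10 choroid plexus genes are in red and the dashed line is the median of all genes, 0.124. Ttr at 1.60 stands above every gene of like abundance, and Clic6 at 0.230 lies within the cloud.

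Whether OS housing changed these genes was asked first in control mice. All 10 had higher levels in OS than in SS mice by the edgeR fit, with log2 fold changes from 0.53 for Clic6 to 1.97 for Ttr and a median of 1.41, against 0.0021 over all genes. None of the 10 passed an adjusted p under 0.1, where edgeR called 0.124% of 17004 genes, and neither DESeq2 nor limma voom called any of them. At an unadjusted p under 0.05 edgeR had 5 of the 10, Clic6, Otx2, Kl, Slc4a5 and Sostdc1, against 7.2% of all genes. The 10 genes move together across mice and do not count as 10 separate results. The lowest adjusted p was 0.376 for Clic6 (log2 fold change 0.53 ± 0.16 SE), whereas Ttr, with the largest difference, had an SE of 1.22 and an adjusted p of 0.786. Without control OS replicate 5, the only OS control low in Ttr, the median was 1.72 and Clic6 passed in edgeR (log2 fold change 0.66, adjusted p = 0.0411). The share of all genes called in that fit was not recorded. Without control SS replicate 4, the highest SS control, the median was 2.65 with none of the 10 called. Markers of other tissue moved alongside. All 14 ependymal genes were above 0 (median 0.27, 3 at an unadjusted p under 0.05). Of the meningeal genes 8 of 10 were below 0 (median -0.31, 3 at an unadjusted p under 0.05, lowest edgeR adjusted p = 0.102). All 5 striatum genes were below 0 (median -0.09, 2 at an unadjusted p under 0.05). All 4 cortex genes were above 0 (median 0.12, 0 at an unadjusted p under 0.05). None of these genes was called. Their part in the difference was not tested.

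In dnFGFR mice the same contrast was smaller and less certain. All 10 log2 fold changes of OS against SS were above 0, from 0.17 for Clic6 to 0.90 for Kcnj13, with a median of 0.52 and SEs from 0.22 to 1.70. None was called, as none of 16944 genes was (0% by edgeR), none had an unadjusted p under 0.05 against 6.72% of all genes, and DESeq2 and limma voom called none of the 10. The lowest adjusted p in edgeR was 0.851. The study, which removed outlier samples and used DESeq2, reported changed genes in this contrast and none in control mice. Without dnFGFR OS replicate 3 all 10 fold changes turned negative, with a median of -0.47, and without dnFGFR SS replicate 3 the median was 1.34. Without dnFGFR OS replicate 5, the library that stood apart, it was 0.46.

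The genotypes were then compared within each housing. In SS mice the log2 fold changes of dnFGFR against control lay between -0.24 for Kcne2 and 0.64 for Ttr, with a median of 0.06 and 6 of 10 above 0. None of the 10 was called by edgeR, DESeq2 or limma voom, where edgeR called 0.2% of 16992 genes, and none had an unadjusted p under 0.05 against 8.63% of all. The median turned to -0.74 without dnFGFR SS replicate 3 and to 0.97 without control SS replicate 4. In OS mice all 10 were lower in dnFGFR than in control mice, between -1.12 for Ttr and -0.27 for Clic6 with a median of -0.93. There again the 3 tools called none of the 10, edgeR called 0.0531% of 16941 genes, and none had an unadjusted p under 0.05 against 7.02% of all. The lowest adjusted p in edgeR was 0.80 for Otx2. Without dnFGFR OS replicate 3 the median was -2.09, without dnFGFR OS replicate 2 it was -0.62, and without dnFGFR OS replicate 5 it was -0.97. In the same contrast 13 of 14 ependymal genes were below 0 (median -0.38, 3 at an unadjusted p under 0.05). Of the meningeal genes 9 of 10 were above 0 (median 0.22, 1 at an unadjusted p under 0.05). Other lists shifted too: all 5 striatum genes were below 0 (median -0.31, 5 at an unadjusted p under 0.05). All 4 cortex genes were above 0 (median 0.545, 1 at an unadjusted p under 0.05). None of these genes was called, and their part in the difference was not tested.

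The housing difference did not differ detectably between genotypes. The interaction, which is the log2 fold change of OS against SS in dnFGFR mice minus that in control mice, was below 0 for all 10 genes, from -1.76 for Ttr to -0.36 for Clic6, with a median of -0.85. Its SE had a median of 1.32 over the 10 genes against 0.159 over all genes. None of the 10 was called, as none of 17445 genes was (0% by edgeR), none had an unadjusted p under 0.05 against 3.41% of all, and the lowest adjusted p was 0.963. DESeq2 and limma voom called none of the 10. Without control SS replicate 4 the median was -1.89, without dnFGFR SS replicate 3 it was -0.15, and without dnFGFR OS replicate 5 it was -0.86. The 5 comparisons share groups, so their fold changes are not independent of each other.

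**Figure D4:**
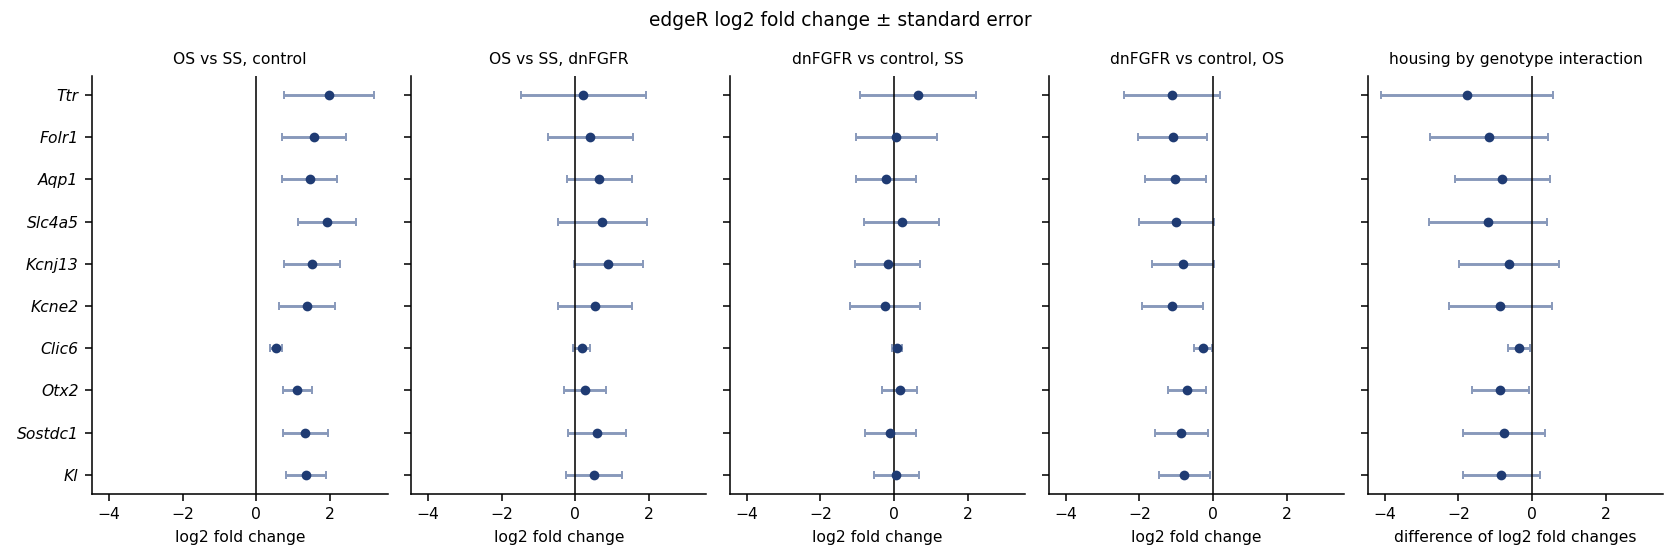
edgeR log2 fold changes of the 10 genes (points) with standard errors (bars) in the 5 comparisons; in the fifth panel the value is a difference between fold changes. Points lie right of 0 for all 10 genes in OS against SS control mice, where the lowest adjusted p was 0.376, and bars are shortest for Clic6.

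Ttr also differed widely among mice sacrificed on the same date. In 4 dnFGFR mice of 1 date (SS replicate 1 and OS replicates 1 to 3) Ttr ran from 0.786 to 2033 CPM, 2585-fold. In 3 control mice of another date (SS replicate 3, OS replicates 4 and 5) it ran from 1.84 to 1789 CPM, 974-fold. In 4 control mice of yet another date (SS replicate 2, OS replicates 1 to 3) it ran from 338 to 1801 CPM, 5.33-fold. Each genotype had 5 dates of its own, so date and genotype cannot be told apart. Only 2 of the 5 SS mice of each genotype shared a date with an OS mouse of that genotype, so housing and date are partly confounded too. On the dates that held both housings, with date as a block, the median log2 fold change of OS against SS was 2.23 in controls (2 SS and 5 OS mice) and 1.57 in dnFGFR mice (2 SS and 4 OS mice), with none of the 10 genes called by edgeR.

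A further 31 genes known from the choroid plexus went with the 10. Their Pearson's r with the mean log2 CPM of the 10 genes over 20 mice had a median of 0.887 (0.562 to 0.988) and was above 0.8 for 25 of 31, whereas it was above 0.8 for 107 of all 17435 other genes, whose median was -0.0314. The most abundant of the 31 were Enpp2, which makes the lipid mediator lysophosphatidic acid (mean 500.4 CPM), the chloride cotransporter Slc12a2 (132.6 CPM), the cation channel Trpm3 (99.7 CPM), the growth factor Igf2 (56.3 CPM) and the anion exchanger Slc4a2 (49.7 CPM). Enpp2 ran from 183 to 1169 CPM with r = 0.979. Prlr, the prolactin receptor, ran from 3.74 to 47.8 CPM with r = 0.821 and was named after its values were seen. None of the 31 was called by edgeR in any of the 5 comparisons. In control mice all 31 were higher in OS than in SS housing, with a median log2 fold change of 0.68 and 13 at an unadjusted p under 0.05 against 7.2% of all genes, of which 0.124% were called. In OS mice all 31 were lower in dnFGFR than in control, with a median of -0.52 and 5 at an unadjusted p under 0.05 against 7.02% of all genes, of which 0.0531% were called. In OS against SS dnFGFR mice 23 of the 30 tested were above 0 (median 0.15), and in dnFGFR against control SS mice 13 of the 29 tested were (median -0.04). None had an unadjusted p under 0.05 in either, against 6.72% and 8.63% of all genes. The interaction was above 0 for 1 of the 31 (median -0.57), with 0 at an unadjusted p under 0.05 against 3.41% of all genes. Like the 10, these genes move together and are not separate results.

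Among all genes outside the 10, the 15 with the highest r over 20 mice were Prr32 (0.988), Enpp2 (0.979), Calml4, F5, 2900040C04Rik, Ecrg4, Lbp, Cldn2, Krt18, Col8a1, Steap1, Trpv4, Tmem72, Rbm47 and Wfdc2 (0.937). Of these, 11 belong to the list of 31, among them Cldn2, a claudin of leaky tight junctions, and F5, which encodes coagulation factor V. The other 4 were 2900040C04Rik, Rbm47, Wfdc2 and the simple-epithelium keratin Krt18, which ran from 0.0280 to 4.24 CPM. Low r was found for the neuronal glucose transporter Slc2a3 (-0.862) and for Mms19 (-0.785). Slc2a3 differed little between mice, from 133 to 166 CPM.

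Of the other cell types, ependyma and oligodendrocytes moved most with the choroid plexus genes. Ependymal cells line the ventricles with beating cilia. The median r of their 14 genes with the mean of the 10 was 0.667, and their summed CPM had r = 0.837 with Ttr over 20 mice (permutation p adjusted over 13 relations 0.000195, rho 0.884). Within control mice that r was 0.74, within dnFGFR mice 0.894 and without the 2 farthest mice 0.744. All 14 ependymal genes had reads in every mouse, and their sum ran from 58.3 to 98.8 CPM in control SS, 74.5 to 101.4 CPM in control OS, 45.4 to 94.7 CPM in dnFGFR SS and 47.4 to 93.9 CPM in dnFGFR OS mice. The ependymal sum thus ran over 2.23-fold where Ttr ran over 9972-fold. Without dnFGFR OS replicate 5, a setting added after the data were seen, its r with Ttr was 0.89, and for oligodendrocytes and cortex, given next, r was 0.782 and -0.522. Within the other dnFGFR mice (n = 9) r was 0.977, 0.915 and -0.451 in that order.

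The 5 oligodendrocyte genes had a median r of 0.677, and their sum had r = 0.763 with Ttr (adjusted permutation p = 0.000217), with 0.535 within control mice, 0.895 within dnFGFR mice and 0.614 without the 2 farthest mice. Their sum ran from 4393 CPM in a dnFGFR SS mouse to 8095 CPM in a control OS mouse, and none of the 5 was at 0. The sum of 4 cortex genes went the other way, with r = -0.495 (adjusted permutation p = 0.049) but a Spearman's rho of -0.395 (adjusted permutation p = 0.163), and r was -0.513 within control and -0.425 within dnFGFR mice, and -0.304 without the 2 farthest mice. For endothelium, astrocytes and microglia r with Ttr was between 0.518 and 0.546 (adjusted permutation p between 0.0363 and 0.0411) and fell to between 0.278 and 0.379 without the 2 farthest mice. It was -0.259, 0.0592 and -0.0032 within control mice and 0.766, 0.807 and 0.846 within dnFGFR mice, a difference that was not tested. Without dnFGFR OS replicate 5 the dnFGFR values were 0.786, 0.799 and 0.837. By Spearman's rho (0.335, 0.46 and 0.547) the adjusted permutation p was 0.213, 0.11 and 0.0443. Pearson's r with Ttr was -0.278 for the 10 meningeal genes (permutation p = 0.234), -0.432 for neurons, 0.302 for the POA genes and 0.00305 for striatum. None of these passed an adjusted p of 0.05. Ttr was not detectably related to the number of counted reads (r = -0.286, permutation p = 0.222). The part of these cell types and of where the tissue was cut in the choroid plexus values was not tested.

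**Figure D5:**
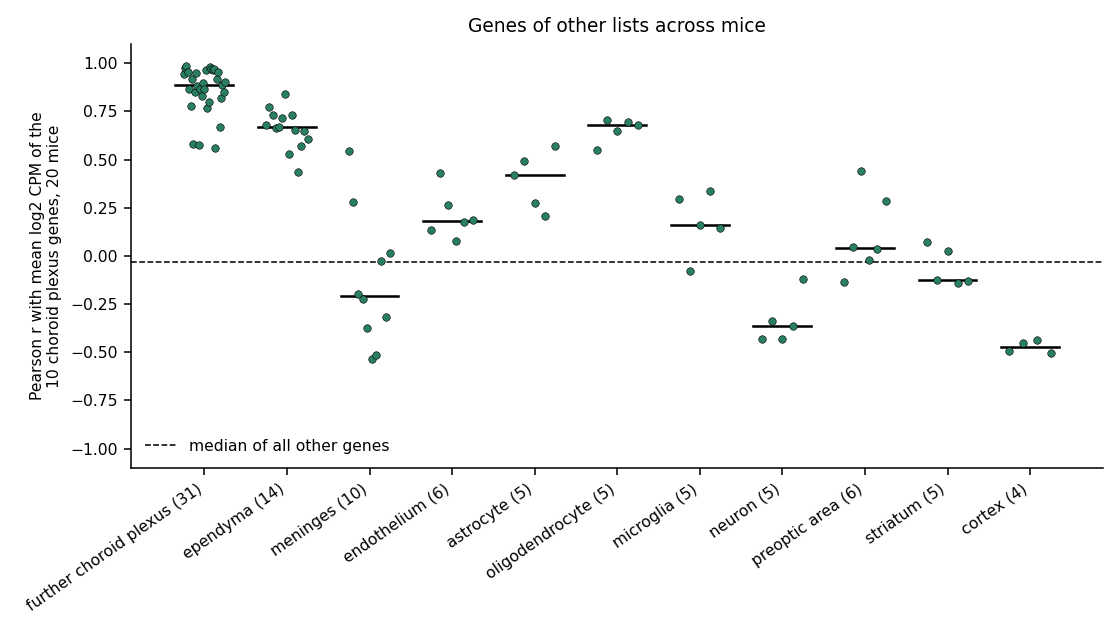
Pearson's r of each listed gene with the mean log2 CPM of the 10 choroid plexus genes over 20 mice (vertical axis), by list, with the number of genes in brackets and bars at list medians. The dashed line is the median of all other genes. The 31 further choroid plexus genes have a median of 0.887, ependyma 0.667 and oligodendrocytes 0.677, while cortex genes lie at -0.474.

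The genes called in the 5 comparisons were set beside the 10 as well. The 21 genes called between OS and SS control mice had a median r of 0.200 with the mean of the 10 genes and a maximum of 0.719. The 34 called between genotypes in SS mice had a maximum r of 0.457, and the 9 called in OS mice one of 0.231. No gene called in any comparison had r above 0.8, a level that 0.614% of all other genes reached, so that a count of 0 is near that share.

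By RefSeq positions on GRCm38.p6 the 10 genes lie on 8 chromosomes. Kcne2 (chromosome 16, 92292389 to 92298133) and Clic6 (92498147 to 92541241) are 200013 bases apart with 11 genes between them. Aqp1 (chromosome 6, 55336299 to 55348555) and Slc4a5 (83207580 to 83304945) share a chromosome. Ttr lies on chromosome 18 (20664209 to 20674326) and overlaps Gm16090, Folr1 on chromosome 7 (101858331 to 101870788) overlaps Gm35597, and Kcnj13 on chromosome 1 (87384577 to 87394729) overlaps Gigyf2. Reads shared with these neighbours cannot be told apart if strand was not used in counting. Otx2 is on chromosome 14 (48656781 to 48667644), Sostdc1 on chromosome 12 (36314169 to 36318452) and Kl on chromosome 5 (150952607 to 150993817), with no overlapping gene.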

How the data were processed

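Whole-number read counts per gene were deposited by the authors, without normalization, after alignment by HISAT2 (GRCm38) and counting on NCBI RefSeq genes by Rsubread. Strand options and the handling of reads over several genes or places are not given in the sources used here. The table also held 20 columns that were not used here. Counted reads per mouse were 32353578 to 39871353, so that 3 reads are 0.0752 to 0.0927 CPM.

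Groups came from the labels. The whole table was tested in R 4.3.3 by the quasi-likelihood test of edgeR 4.0.16 after filterByExpr and TMM scaling, with Benjamini-Hochberg adjustment over all genes and calls at an adjusted p under 0.1, the threshold of the study. Each comparison was fitted on its own groups, and the interaction on all 4. All 10 genes passed the filter in each comparison. Nothing in the sources used here ties mice to litters or cages. Correlations used log2 CPM (TMM, prior count 2) with 100000 permutations. RPKM was computed from CPM and the summed length of all exons in GENCODE vM21. Positions and promoters were from RefSeq. Sacrifice dates were read from the study's animal records.

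Members and lists were chosen with earlier results of these data known. The genes named beside the 10 were the 15 with the highest and the 3 with the lowest r with their mean (1 of these is not reported here), and of the list of 31 the 5 most abundant and the 3 with the highest r. Alternatives were a joint fit of all groups, a 0.05 threshold, scaling by RLE, leaving out the filter or requiring 10 counts per mouse, DESeq2 1.42.0, voom of limma 3.58.1 (quality weights), a replicate block, date as a block and leaving out each mouse. The code was tested on simulated data.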

Additional observations from a re-analysis of the deposited data

Results flagged for a closer look

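Within groups of 5 mice, 8 of 40 checks of a single value (10 genes in 4 groups) exceeded Dixon's 95% limit for the gap to the nearest of the other 4. Chance flags about 1 in 20 groups where values are normally distributed. The checks used CPM and not its logarithm, and CPM ranged widely within groups, so that rate need not hold here. The 40 checks are not independent, since the genes move together across mice. All 8 fell on 2 mice, each of them the highest of its group.

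dnFGFR OS replicate 3 was flagged for 5 genes. Ttr was at 2033 CPM against 330.6 CPM in the next mouse, Folr1 at 9.05 against 2.22 CPM, and Slc4a5 at 16.9 against 3.90 CPM. Kcne2 was at 8.62 against 1.74 CPM and Otx2 at 13.9 against 4.47 CPM.

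Control SS replicate 4 was flagged for 3 genes. Folr1 was at 6.42 CPM against 1.77 CPM in the next mouse, Aqp1 at 7.42 against 2.19 CPM and Kcne2 at 6.52 against 1.99 CPM.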

How the results depend on the processing

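No choroid plexus gene was called by edgeR in the 5 comparisons with a joint fit of all 4 groups, a 0.05 threshold, RLE scaling, no filter or a minimum of 10 counts per mouse, nor by DESeq2 or limma voom. In OS against SS control mice the count of called genes was 0 to 1 when each mouse was left out, with Clic6 called without control OS replicate 5, and it was 1 with a replicate block (Clic6, log2 fold change 0.51, edgeR adjusted p = 0.0659). For neither of these fits was the share of all genes called recorded. The replicate numbers did not pair the mice: correlations of same-numbered mice ran from -0.235 to 0.259, so the block is only another model, and it changed no other call. Over single genes and settings, 882 values kept direction and side of the threshold, 58 changed sign and 2 passed the threshold.

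Leaving out each mouse moved the median log2 fold change of the 10 genes between 1.14 and 2.65 (OS against SS, control), -0.47 and 1.34 (OS against SS, dnFGFR), -0.74 and 0.97 (dnFGFR against control, SS), -2.09 and -0.62 (dnFGFR against control, OS) and -1.89 and -0.15 (interaction). The median was also moved by limma voom to 2.11 (OS against SS, control), -1.41 (dnFGFR against control, OS) and -1.37 (interaction). The replicate block moved it to 1.81 (OS against SS, control), -0.21 (dnFGFR against control, SS) and -1.45 (dnFGFR against control, OS). For Ttr, limma voom gave 4.65 and 1.94 for OS against SS in control and dnFGFR mice and -2.43 for dnFGFR against control OS mice, none called. The median BCV moved between 0.923 and 1.01 and the median correlation with Ttr between 0.911 and 0.942. With a minimum of 10 counts per mouse, which left 6 of the 10 genes, the median BCV was 0.804 and the median log2 fold change of dnFGFR against control SS mice was -0.01998.

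Signs of single genes were not stable in 3 comparisons. When each mouse was left out, log2 fold changes of OS against SS in dnFGFR mice ran over Ttr -1.71 to 1.55, Folr1 -1.09 to 1.202, Aqp1 -0.49 to 1.40, Slc4a5 -0.90 to 1.68, Kcnj13 -0.30 to 1.95, Kcne2 -0.93 to 1.71, Clic6 -0.0801 to 0.30, Otx2 -0.45 to 0.80, Sostdc1 -0.33 to 1.25, Kl -0.45 to 1.29. Those of dnFGFR against control in SS mice ran over Ttr -0.70 to 2.03, Folr1 -0.73 to 1.59, Aqp1 -0.97 to 0.95, Slc4a5 -0.75 to 1.40, Kcnj13 -1.24 to 1.00, Kcne2 -1.42 to 1.048, Clic6 -0.0405 to 0.19, Otx2 -0.40 to 0.58, Sostdc1 -0.77 to 0.78, Kl -0.72 to 0.74. The interaction ran over Kcnj13 -1.82 to 0.43, Kcne2 -2.32 to 0.32. In dnFGFR against control SS mice limma voom gave -0.69 for Slc4a5, 0.0278 for Sostdc1 and -0.0166 for Kl, and the replicate block gave -3.15 for Ttr, -0.20 for Folr1, -0.52 for Slc4a5 and -0.0487 for Kl, all opposite in sign to the edgeR fit without it. The cause was not tested.

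Genes near 0 rest on few reads, such as 7 for Ttr and 1 for Slc4a5 in their lowest mice, and with 5 mice a group SEs of up to 2.33 on the log2 scale leave large differences undetectable. Bulk RNA of hand-cut tissue cannot separate the amount of epithelium from its expression per cell.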
